A study of Gallus gallus with 2 samples.

Results

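Protein phosphatases remove the phosphate groups that kinases place on serine, threonine and tyrosine. Serine/threonine phosphatases of the PPP family work as a small set of catalytic subunits that are joined to many regulatory subunits, which choose the substrate and the place in the cell, whereas PPM1 enzymes act without such subunits. Tyrosine phosphatases are specified gene by gene, either as receptors that span the membrane (PTPR) or as non-receptor enzymes (PTPN). Dual-specificity phosphatases act on tyrosine and on serine or threonine, and a group of them, the MAP kinase phosphatases, switches off MAP kinases.

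The genes described here are the phosphatase genes and phosphatase subunit genes of 6C2 cells, taken by gene symbol alone: symbols starting with PPP and a digit from 1 to 6, PPM1, PTPN, PTPR, PTP4A, DUSP or CDC14, and the EYA genes. This gave 119 rows of the deposited gene table with 115 symbols, out of 16464 rows that carry a symbol or identifier in the symbol column. For the 4 symbols with a second row, PPP2CA, PPP3CB, PTPN2 and DUSP11, the longest model was used. Of the 115 genes, 57 fell in the serine/threonine class (PPP and PPM1), 35 in the tyrosine class (PTPN, PTPR and EYA) and 23 in the dual-specificity class (DUSP, CDC14 and PTP4A). The rule used no measured value, though it was set with earlier results of these data known.

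Total RNA of 6C2, an established chicken erythroleukemia line, had been depleted of ribosomal RNA and sequenced in 2 samples, called replicate 1 and replicate 2. The labels describe both samples alike, as cycling cells held at the stage of the erythroid colony-forming unit, and give no treatment and no second group, so no contrast between conditions exists. Nothing in them tells whether separate cultures were used, and the spread of the values may be technical. Values are RPKM, the depth- and length-scaled read number that the authors deposited, given for replicate 1 and then replicate 2, or as mean ± SD of the 2 samples. Detected means an RPKM of 1 or more in each sample.

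The table held 40064443 reads for replicate 1 and 30668939 for replicate 2, of which the 115 phosphatase genes took 163747 and 129604, or 0.416% ± 0.0098 of all reads (SD, n = 2). Red cell lineage markers were detected for 7 of 7 measured genes, with summed levels of 1563 and 1776 RPKM. Most of this sum was HBAA, at 1083 and 1252 RPKM. The lineage label thus had its markers, and PTPRC, the CD45 antigen of blood cells, stood at 90.5 and 97.3 RPKM. Markers of B cells, macrophages and granulocytes were near 0. For B cells 0 of 4 markers were detected (summed level 0.38 and 0.26 RPKM). Macrophages had 0 of 5 (0.30 and 0.45) and granulocytes 0 of 3 (0.34 and 0.48). Fibroblasts had 0 of 5 (1.99 and 2.70). Of 8 T cell markers 1 was detected, CD3E, at 2.42 and 2.91 RPKM (3.55 and 4.48 for the whole list). Of 3 thrombocyte markers, GP9 (6.22 and 5.77 RPKM) and ITGB3 (3.98 and 5.45 RPKM) were detected, with 10.3 and 11.3 for the list. The levels are those of a bulk sample, in which fewer cells with a transcript and less of it per cell cannot be told apart.

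Of the 115 phosphatase genes, 68 were detected, or 59.1%, against 60.4% of the 13086 named genes and 52.6% of all 16464 rows. The share is near that of all named genes and is no result about phosphatases. At an RPKM of 10 in both samples the count was 45 of 115, or 39.1%, against 35.2% of named genes, and at an RPKM of 50 it was 8 of 115, or 6.96%, against 10.3%. The median level was 7.71 RPKM over the 115 genes and 4.34 RPKM over all named genes. Named genes here include small RNAs with a symbol, such as SCARNA1, and shares without them were not computed. PPP1CB led with 279 and 254 RPKM, followed by PTPN2, DUSP22, PTPRC and PPP1R7. These 5 genes held 37.4% of the summed RPKM of the 115 genes in replicate 1 and 35.3% in replicate 2, and the 20 highest held 70.2% and 68.0%.

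**Figure D1:**
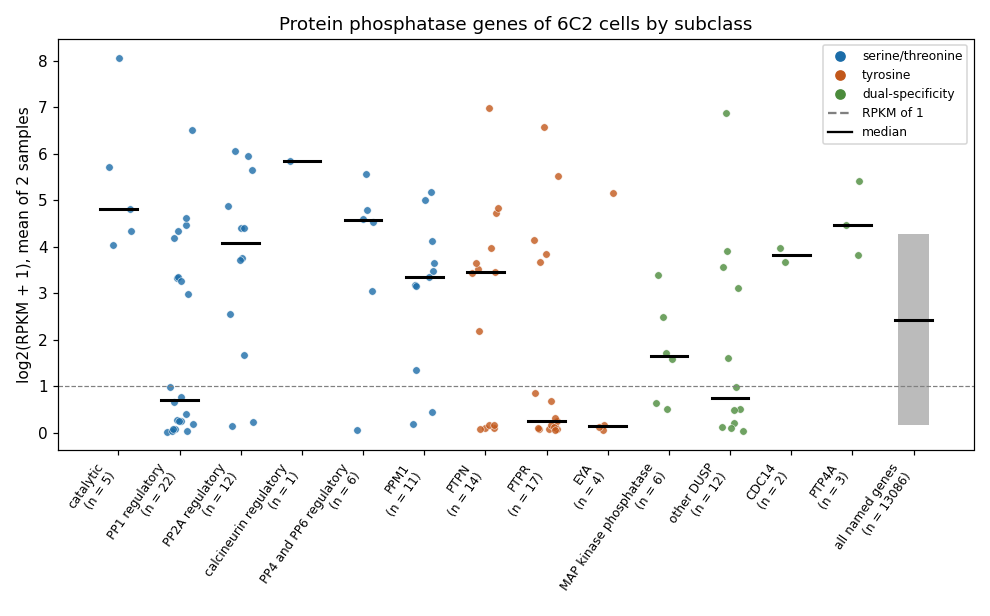
Level of the 115 phosphatase genes by subclass, with each point the mean log2(RPKM + 1) of a gene over the 2 samples and each black bar the median of its subclass; the grey box at the right runs from the lower to the upper quartile of the 13086 named genes. Catalytic, PP4 and PP6 regulatory, CDC14 and PTP4A genes sat mostly or wholly above the dashed line at an RPKM of 1, while most PTPR and EYA genes and 13 of 22 PP1 regulatory genes sat below it.

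The tyrosine class had the largest share of genes near 0. In the serine/threonine class 39 of 57 genes were detected (68.4%), in the tyrosine class 15 of 35 (42.9%) and in the dual-specificity class 14 of 23 (60.9%), beside 60.4% of named genes. Genes under 0.2 RPKM in both samples numbered 9 of 57 in the serine/threonine class, 16 of 35 in the tyrosine class and 3 of 23 in the dual-specificity class, or 15.8%, 45.7% and 13.0%, against 26.5% of named genes. Over all members the medians were 9.19 RPKM for serine/threonine, 0.25 RPKM for tyrosine and 2.27 RPKM for dual-specificity genes. Over detected members alone they were 19.4, 14.6 and 11.3 RPKM, and 13.9 RPKM for detected named genes.

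On the log2(RPKM + 1) scale the serine/threonine median stood above the tyrosine median by 3.04 ± 0.015 and above the dual-specificity median by 1.64 ± 0.066, and the dual-specificity median above the tyrosine median by 1.39 ± 0.081 (SD, n = 2 samples). Genes are not replicates, so these descriptions carry no p-value. With genes under a mean of 0.1 RPKM left out, the first difference was 0.22, the second 0.91 and the last turned round, at -0.69. The order of the tyrosine and dual-specificity medians thus depended on genes near 0.

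**Figure D2:**
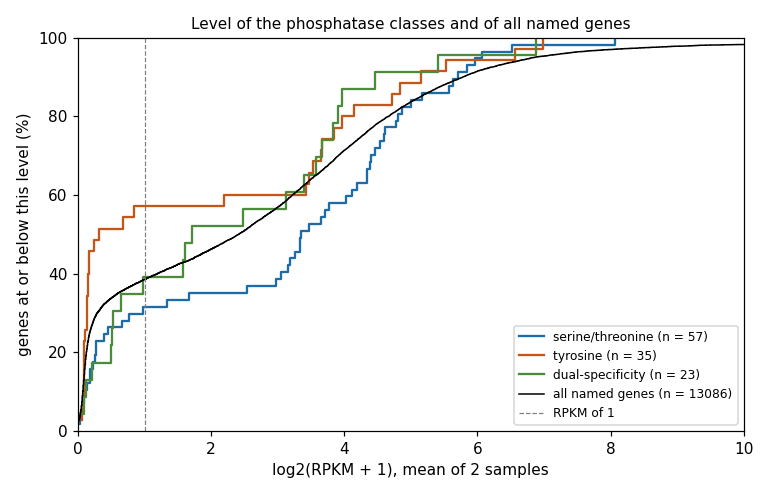
Share of genes at or below each level, as a percentage, against the mean log2(RPKM + 1) of the 2 samples, for the 3 phosphatase classes (coloured steps) and the 13086 named genes (black). The tyrosine curve rises steeply near 0 and stays nearly flat up to 2.2 on this scale, since 16 of its 35 genes were under 0.2 RPKM in both samples and the lowest detected one stood at 3.56 RPKM.

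All 5 catalytic subunit genes of the PPP family that carry a symbol of this kind were detected, with a median of 27.0 RPKM. The share of named genes detected was 60.4%. PPP1CB, a catalytic subunit of PP1, which acts in mitosis, glycogen metabolism and contraction, stood at 279 and 254 RPKM on 16772 and 11683 reads. The exact Poisson 95% interval of the reads, which covers counting error only, runs over 275 to 284 RPKM in replicate 1 and 249.5 to 259 RPKM in replicate 2. The other measured PP1 catalytic gene, PPP1CC, stood at 18.6 and 19.9 RPKM. PPP1CB was thus 15.1 times PPP1CC in replicate 1 and 12.8 times in replicate 2, and no other phosphatase gene reached its level. It ranked as number 383 of the 13086 named genes by mean RPKM.

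The PP2A catalytic gene PPP2CA, which turns over much of the cell's phosphoserine and phosphothreonine, stood at 52.6 and 49.8 RPKM on chromosome 13 (16330227 to 16346270). The calcineurin catalytic gene PPP3CB, whose enzyme answers to calcium and calmodulin, stood at 24.8 and 29.2 RPKM on chromosome 6 (17231988 to 17275229). PPP6C, the catalytic gene of PP6, stood at 12.8 and 17.8 RPKM and was the lowest of the 5. PPP1CB exceeded PPP2CA 5.31 times and 5.10 times in the 2 samples. PPP1CA, PPP4C and PPP5C were not analysed here. Catalytic subunits of a family are close in sequence, and the counting rule for reads with several matches is not given in the labels, so the split between PPP1CB and PPP1CC is uncertain.

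Regulatory subunits of PP1 were detected for 9 of 22 genes (40.9%, against 60.4% of named genes). PPP1R7, which encodes the nuclear regulator SDS22, led with 91.3 and 89.4 RPKM, between the levels of PPP1CB and PPP1CC. PPP1R8, which encodes the nuclear inhibitor NIPP1, stood at 23.7 and 23.4 RPKM. The span of PPP1R8 holds the small Cajal body RNA SCARNA1 on the same strand, listed at 11593 and 11359 RPKM, and whether reads of SCARNA1 entered the count of PPP1R8 was not tested. PPP1R15B, which brings PP1 to the translation factor eIF2 alpha, stood at 18.6 and 23.7 RPKM. PPP1R12A, which brings PP1 to myosin, stood at 17.4 and 21.3 RPKM, and its relative PPP1R12B at 7.80 and 5.95 RPKM.

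The inhibitor gene PPP1R2 stood at 16.9 and 17.5 RPKM. PPP1R26, PPP1R13B and PPP1R9A, the gene of the actin-binding neurabin, followed at means of 9.19, 9.09 and 8.62 RPKM. The 13 PP1 regulatory genes that were not detected included all 5 glycogen-targeting genes, PPP1R3A, PPP1R3B, PPP1R3C, PPP1R3D and PPP1R3G, at means from 0.030 to 0.585 RPKM. PPP1R14D and PPP1R1C had 0 reads in replicate 1 and 1 read in replicate 2. The 3-read limit for PPP1R14D was 0.0738 RPKM in replicate 1, and for PPP1R1C 0.0840 RPKM. PPP1R14C, PPP1R17, PPP1R36 and PPP1R42 stood at means from 0.065 to 0.205 RPKM. PPP1R16B, at 0.59 and 0.81 RPKM, was nearest to the threshold among those under 1 in both samples.

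**Figure D3:**
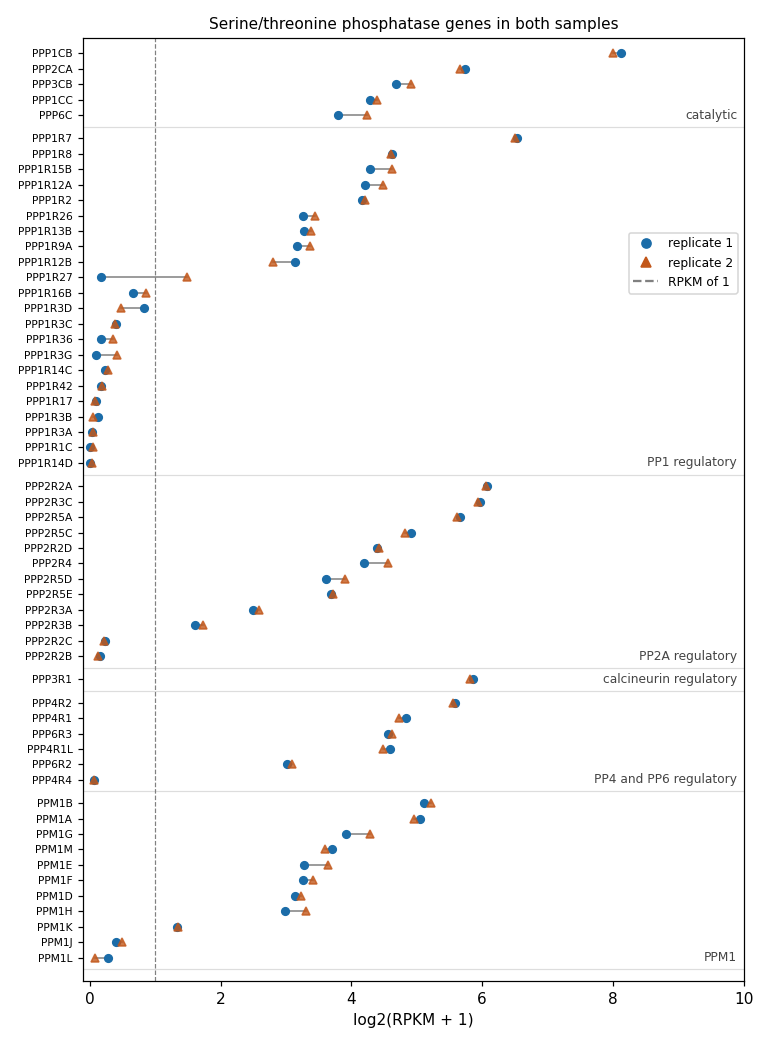
Level of the 57 serine/threonine phosphatase genes as log2(RPKM + 1), with a circle for replicate 1 and a triangle for replicate 2, ordered by mean within each subclass. PPP1CB stands alone at the right, all 5 catalytic genes lie to the right of the dashed line, and PPP1R27 has the widest gap between the samples.

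Regulatory subunits of PP2A were detected for 10 of 12 genes (83.3%, against 60.4% of named genes). Among the B55 subunits, which direct PP2A in mitotic exit, PPP2R2A stood at 66.7 and 65.3 RPKM and PPP2R2D at 19.9 and 20.5 RPKM, while PPP2R2B and PPP2R2C, which are mainly known from mammalian brain, stood at 0.11 and 0.09 RPKM and at 0.18 and 0.16 RPKM. PPP2R2A was thus 3.35 times and 3.19 times PPP2R2D. It also stood above the PPP2CA model of chromosome 13 in both samples, that model being 0.789 and 0.762 of it. The ratio leaves out a second row listed as PPP2CA, on chromosome 4, at 22.2 and 22.6 RPKM. That row lies among the RefSeq neighbours of PPP2CB. The ratio thus does not compare PPP2R2A with all PP2A catalytic RNA. All 4 measured genes of the B56 family were detected, led by PPP2R5A at 49.8 and 48.0 RPKM and PPP2R5C at 29.1 and 27.2 RPKM, with PPP2R5D and PPP2R5E at means of 12.6 and 12.1 RPKM.

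The 3 genes of the PPP2R3 family spread more widely. PPP2R3C stood at 61.9 and 60.5 RPKM, PPP2R3A at 4.64 and 5.02 RPKM and PPP2R3B at 2.05 and 2.33 RPKM. PPP2R4, the gene of an activator of PP2A, was listed at 17.4 and 22.7 RPKM. Its model spans chromosome 17 from 5871407 to 6090870 and overlaps 14 other genes of the table, so its value is uncertain. In all, 15 of the 115 spans overlapped another gene of the table, 11 of them a gene other than a small RNA and 4 a small RNA. No scaffold subunit gene of PP2A was analysed here.

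PPP3R1, which encodes the calcium-binding regulatory subunit of calcineurin, stood at 56.9 and 55.4 RPKM, 2.30 times and 1.90 times the PPP3CB model of chromosome 6. Of the 6 PP4 and PP6 regulatory genes, 5 were detected, against 60.4% of named genes. PPP4R2 stood at 47.1 and 46.0 RPKM, PPP4R1 at 27.7 and 25.4, PPP6R3 at 22.6 and 23.7, PPP4R1L at 23.1 and 21.3 and PPP6R2 at 7.07 and 7.56 RPKM. PPP4R4 was at 0.05 RPKM in both samples, on 5 and 4 reads.

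The PPM1 genes, which encode phosphatases that need magnesium or manganese, were detected for 9 of 11 members (81.8%, against 60.4% of named genes). PPM1B and PPM1A, which act on stress-activated kinase pathways, led with 33.6 and 36.2 RPKM and 32.0 and 30.0 RPKM. The nuclear phosphatase gene PPM1G stood at 14.1 and 18.6 RPKM and PPM1M at 12.0 and 11.1 RPKM, the span of PPM1M overlapping WDR82 on the other strand. PPM1E, PPM1F, PPM1H and PPM1D lay between 7.93 and 10.1 RPKM as means. Of these, PPM1D encodes WIP1, which reverses p53 and checkpoint signalling. PPM1K, the gene of the mitochondrial phosphatase of branched-chain amino acid breakdown, was the lowest detected of all 115 genes by mean, at 1.51 and 1.55 RPKM. PPM1J and PPM1L were at 0.32 and 0.41 RPKM and at 0.21 and 0.06 RPKM.

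In the tyrosine class, 9 of 14 PTPN, 5 of 17 PTPR and 1 of 4 EYA genes were detected, against 60.4% of named genes. The PTPN share, 64.3%, is near that of named genes. The class had no gene between a mean of 0.80 RPKM, that of PTPRT, and one of 3.56 RPKM, that of PTPN14. PTPN2, the T cell protein tyrosine phosphatase that acts on JAK and STAT proteins, led with 129 and 123 RPKM on chromosome 2 (99313361 to 99347010). Its closest relative, PTPN1, stood at 9.31 and 10.8 RPKM, so that PTPN2 was 13.8 times and 11.4 times PTPN1. PTPN7, a phosphatase of blood cells that acts on MAP kinases, stood at 25.6 and 29.6 RPKM.

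The paired SH2-domain phosphatase genes lay on either side of the threshold. PTPN11, which encodes SHP2, a positive element of growth factor signalling, stood at 26.9 and 23.7 RPKM. PTPN6, which encodes SHP1, the blood cell phosphatase known in mammals to end signalling from the erythropoietin receptor, stood at 0.10 and 0.13 RPKM on 11 reads in each sample. PTPN11 was 269 times PTPN6 in replicate 1 and 183 times in replicate 2, ratios that rest on these few reads. The PTPN6 model is 2692 bp long and lies on chromosome 1 from 80498103 to 80507557. The lymphocyte gene PTPN22 was likewise near 0, at 0.08 and 0.06 RPKM, as were PTPN3, PTPN5 and PTPN13, at means from 0.055 to 0.125 RPKM.

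The other detected PTPN genes were PTPN21 (13.0 and 16.2 RPKM), PTPN9 (9.20 and 14.0), PTPN4 (10.1 and 11.0), PTPN14 (3.23 and 3.88) and the gene listed as PTPN18 (10.4 and 9.14). The last lies among genes that surround PTPN12 in the RefSeq table, with 8 of its 10 nearest named neighbours shared, and the RefSeq table used here names that place PTPN12. Its value is given under the deposited symbol, so which gene it measures is uncertain.

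**Figure D4:**
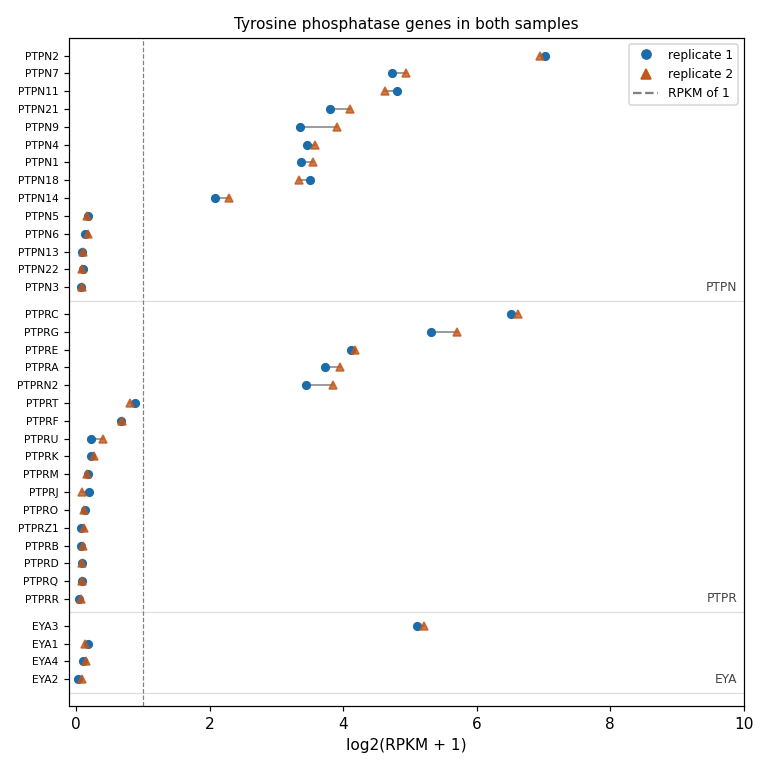
Level of the 35 tyrosine phosphatase genes as log2(RPKM + 1) in replicate 1 (circles) and replicate 2 (triangles), ordered by mean within each subclass. Detected genes stand well to the right of the dashed line at an RPKM of 1 and the others lie to the left of it, with PTPRT and PTPRF nearest.

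Of the receptor genes, PTPRC was the highest, at 90.5 and 97.3 RPKM on 15358 and 12637 reads, and lies on chromosome 8 from 2034560 to 2092242. CD45, its product, frees Src family kinases from inhibition in lymphocytes and is a surface mark of white blood cells. PTPRG stood at 38.8 and 51.3 RPKM, so that PTPRC was 2.33 times and 1.90 times PTPRG. PTPRE, PTPRA and PTPRN2 followed at means of 16.7, 13.4 and 11.7 RPKM. PTPRE and PTPRA encode related receptors that activate Src family kinases, whereas PTPRN2 belongs to a pair of secretory granule proteins without usual phosphatase activity, and its model here is 916 bp long.

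The 12 other receptor genes were not detected. PTPRT and PTPRF stood at 0.84 and 0.76 RPKM and at 0.59 and 0.62 RPKM. PTPRJ, the gene of CD148, a receptor of blood and vessel cells, stood at 0.14 and 0.06 RPKM, and PTPRO at 0.10 and 0.09 RPKM. PTPRB, PTPRD, PTPRK, PTPRM, PTPRQ, PTPRR, PTPRU and PTPRZ1 lay between means of 0.040 and 0.250 RPKM. Undetected receptor genes had a median span of 145 kb and a median model of 4715 bp, and the 5 detected ones 77.3 kb and 3110 bp. The ranges of span overlapped, from 25.3 to 395 kb for undetected and 24.2 to 375 kb for detected genes. Whether span or model length bears on detection was not tested.

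EYA3 was the detected EYA gene, at 33.4 and 36.1 RPKM. EYA proteins are coactivators of homeobox factors that carry a tyrosine phosphatase of another fold. EYA1, EYA2 and EYA4 stood at means of 0.115, 0.040 and 0.095 RPKM, with 10 reads at most in a sample. EYA3 was 257 times EYA1 in replicate 1 and 361 times in replicate 2, on 10 and 6 reads of EYA1.

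In the dual-specificity class the highest gene was DUSP22, at 118 and 117 RPKM on chromosome 2 (67610716 to 67647522). DUSP22 is a small atypical phosphatase that acts in JNK and T cell receptor signalling. DUSP11, which removes phosphates from RNA, stood at 14.9 and 13.1 RPKM in the longer of its models. DUSP3, the ERK and JNK phosphatase VHR, stood at 11.1 and 10.7 RPKM and DUSP19 at 7.87 and 7.54 RPKM. DUSP22 was thus 10.6 times and 10.9 times DUSP3. DUSP14 stood at 1.91 and 2.16 RPKM, and DUSP12 crossed the threshold in 1 sample, with 1.05 and 0.88 RPKM. DUSP13, DUSP15, DUSP18, DUSP26, DUSP27 and DUSP28 were under 1 RPKM in both samples. The row listed as DUSP18 shares 8 of its 10 nearest named neighbours with DUSP21 in the RefSeq table used here, so which gene it measures is uncertain.

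None of the 6 DUSP genes grouped here as MAP kinase phosphatases reached an RPKM of 10 in both samples, against 35.2% of named genes. DUSP3 and PTPN7, which also act on MAP kinases, were placed in other subclasses and were above 10 RPKM in both samples. Of the 6, 4 were detected, a share near the 60.4% of named genes. DUSP7, a cytoplasmic ERK phosphatase, stood at 9.18 and 9.91 RPKM. DUSP4, a nuclear one, stood at 3.70 and 5.49 RPKM, and DUSP10 and DUSP8, which act mainly on JNK and p38, at 2.20 and 2.34 RPKM and at 1.60 and 2.36 RPKM. DUSP5 and DUSP16 were at 0.31 and 0.56 RPKM and at 0.55 and 0.57 RPKM. The median of the 6 was 2.13 RPKM. DUSP1, DUSP2 and DUSP6, often the most inducible of the group, were not analysed here.

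Both CDC14 genes and all 3 PTP4A genes were above 10 RPKM in both samples, against 35.2% of named genes. CDC14A and CDC14B, whose yeast relative drives exit from mitosis, stood at means of 11.6 ± 0.658 and 14.7 ± 1.84 RPKM (SD, n = 2). CDC14B lies on chromosome Z and its span overlaps 4 other genes of the table. Of the PTP4A genes, which encode the prenylated PRL phosphatases of proliferating cells, PTP4A2 stood at 42.9 and 39.9 RPKM, PTP4A1 at 21.3 and 20.8 RPKM and PTP4A3 at 11.2 and 15.2 RPKM. This order held in both samples, with PTP4A2 2.01 times and 1.91 times PTP4A1.

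**Figure D5:**
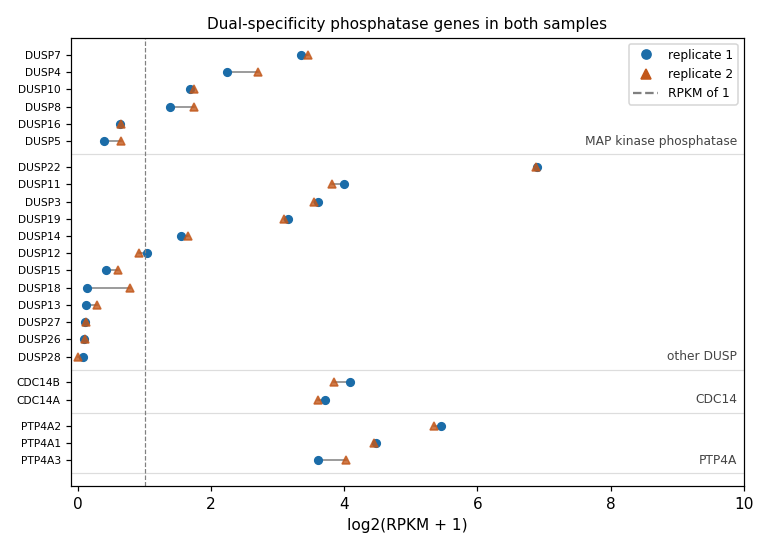
Level of the 23 dual-specificity phosphatase genes as log2(RPKM + 1) in replicate 1 (circles) and replicate 2 (triangles), ordered by mean within each subclass. DUSP22 stands apart at the right, the PTP4A and CDC14 genes all lie above an RPKM of 10, and the MAP kinase phosphatase genes lie below it.

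Genes that act beside these phosphatases were described in the same way. Of 20 measured partners and inhibitors, 17 were detected (85.0%, against 60.4% of named genes), with a median of 18.0 RPKM. ARPP19, an inhibitor of PP2A with B55 in mitosis, stood at 204 and 192 RPKM, the PP2A inhibitor gene SET at 107 and 101 RPKM and TIPRL at 65.8 and 66.1 RPKM. MASTL, the kinase that activates ARPP19, stood at 5.77 and 5.11 RPKM. The calcineurin inhibitor gene RCAN1 stood at 39.8 and 23.6 RPKM, a spread of 31.7 ± 11.5 (SD, n = 2). Of the calcineurin targets, NFATC3 was detected, at 16.8 and 19.9 RPKM, while NFATC1 and NFATC2 were under 0.1 RPKM in both samples.

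Of 39 measured phosphatase and phosphatase-related genes outside the symbol rule, 32 were detected (82.1%, against 60.4% of named genes). Their median was 8.84 RPKM. ACP1, the low molecular weight tyrosine phosphatase, led at 165 and 124 RPKM, followed by SSU72, which acts on RNA polymerase II, at 79.3 and 73.9 RPKM. The cell cycle phosphatase gene CDC25A stood at 6.50 and 10.1 RPKM. INPP5D, the blood cell inositol phosphatase SHIP1, stood at 2.27 and 2.88 RPKM.

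Among kinases and targets that these phosphatases are set against, 15 of 19 measured genes were detected (78.9%, against 60.4% of named genes), with a median of 16.7 RPKM. MAPK11 stood at 141 and 136 RPKM and MAPK14 at 31.2 and 29.0 RPKM. Both stood above DUSP7, the highest of the 6 measured genes grouped here as MAP kinase phosphatases. MAPK12, at 2.37 and 2.26 RPKM, and MAPK13, at 1.04 and 1.03 RPKM, stood below DUSP7. PTPN7, which also acts on MAP kinases, was outside that group, at 25.6 and 29.6 RPKM. LYN, a Src family kinase, stood at 81.3 and 76.1 RPKM, whereas LCK, listed as P56LCK, had 0 RPKM and 0.07 RPKM and SYK 0.05 and 0.01 RPKM.

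At a 1.5-fold limit the 2 samples were close for phosphatase genes above the lowest levels. Of the 68 with a mean of at least 1 RPKM, 1 lay 1.5-fold or more apart, PTPN9, which was 1.53 times as high in replicate 2, against 8.36% of the 8048 named genes filtered in the same way. With TMM or median-ratio scaling of the counts 0 of the 68 lay that far apart, but the share of named genes under these scalings was not computed. With no filter on low values 21 of 115 did, or 18.3%, against 26.0% of named genes. At a lower limit of 1.2-fold, 17 of the 68 lay apart, or 25%, against 33.3% of the 8048 named genes. Of these 17, 16 were higher in replicate 2, as were 2060 of the 2676 named genes that far apart. Among genes with a mean of at least 5 RPKM, the next largest differences were at PPP6C, PTP4A3, PTPRN2 and PTPRG, all higher in replicate 2, while PPP1R12B, CDC14B and DUSP11 were the most in the other direction. On the log2(RPKM + 1) scale these ran from -0.34 at PPP1R12B to 0.56 at PTPN9. Each side is 1 sample, so no test stands behind these differences.

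PPP1R27 fell outside that count, with a mean of 0.965 RPKM. It had 3 reads in replicate 1 and 32 reads in replicate 2, or 0.13 and 1.80 RPKM. The exact Poisson 95% intervals, which cover counting error only, were 0.0266 to 0.377 RPKM and 1.23 to 2.54 RPKM and did not overlap. Nor did those of other members, such as PPP1CB, PTPRC, PTPRG and PTPN9. The share of genes with intervals apart was not computed, so this does not set PPP1R27 apart. PPP1R27 and DUSP12 were the 2 genes that reached 1 RPKM in a single sample. P4HB, the next named gene beside PPP1R27 on chromosome 18, stood at 409.5 and 383 RPKM. The 2 spans do not overlap, and whether P4HB bears on the count of PPP1R27 was not tested.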

How the data were processed

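Total RNA of 2 samples of 6C2 cells was treated with DNase, depleted of ribosomal RNA with RiboMinus probes, fragmented with RNase III and sequenced from SOLiD libraries, per the labels' protocols. No label or header names the aligner, genome build or counting tool, so coordinates are as deposited and without a build. Per the file headers, the authors deposited 1 table with read counts and RPKM values of both samples side by side. The read counts as deposited were used for depth, intervals and scaling, and the deposited RPKM values for all levels. Small RNAs and mitochondrial genes took 39.2% and 40.1% of the reads, which lowers the RPKM of all other genes. Of 17934 rows, 1470 without a symbol were left out, and named genes are the 13086 whose symbol is more than an identifier. Small RNAs that carry such a symbol are among them.

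The members and lists were chosen with earlier results of these data known. With 1 group there was no test. Differences used log2(RPKM + 1). Counts seen as 0 allow up to 3 reads. List genes without a symbol match were matched through unambiguous RefSeq synonyms, and RefSeq (assembly GRCg7b) also gave neighbours: 111 of 115 symbols were in it, and each of these lay on the same chromosome and shared at least 2 of its 10 nearest named neighbours. Genes named were the highest 6 and lowest 3 of each subclass, those nearest the threshold, those most different between the samples and a fixed set. The remaining members were named after their values were seen, so that each gene is accounted for. Alternatives were other thresholds, filters, models, class limits, scalings (edgeR 4.0.16 TMM factors and median ratios) and leaving out each sample. The call of detected genes and that of genes higher in replicate 2 were tried on simulated counts. There, genes were raised in replicate 2 by more than the 1.5-fold limit. Smaller or downward differences and detection near the threshold were not tried. Python 3.11.15, numpy 2.4.6, pandas 2.3.3, scipy 1.17.1, matplotlib 3.10.9 and R 4.3.3 were used. Some genes of the lists are not reported here.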

Additional observations from a re-analysis of the deposited data

Results flagged for a closer look

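Of the 4 second models of a repeated symbol, which the comparisons above do not use, 3 held reads above the limit that a count of 0 allows. A second model listed as PPP2CA, ENSGALG00000010273 on chromosome 4 (35774088 to 35786881), stood at 22.2 and 22.6 RPKM, a mean of 22.4. It lies between GSR and PURG and shares 8 of its 10 nearest named neighbours with PPP2CB in RefSeq and 0 with PPP2CA. A second model listed as PPP3CB, ENSGALG00000012280 on chromosome 4 (61990187 to 62042813), stood at 2.54 and 2.98 RPKM, a mean of 2.76. It shares 8 such neighbours with PPP3CA and 0 with PPP3CB. The second model of DUSP11, ENSGALG00000006943, of 722 bp, stood at 18.7 and 18.3 RPKM, a mean of 18.5, and ends 294 bp from the start of the longer model. Joined, the 2 DUSP11 models gave 16.5 and 15.2 RPKM. The second model listed as PTPN2, ENSGALG00000013148, had 0 and 2 reads and shares 6 neighbours with PTPN3 and 0 with PTPN2.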

How the results depend on the processing

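The number of detected phosphatase genes lay between 60 and 86 under the other thresholds, models, member rules and single samples tried. Class counts then stayed within 1.5 times of their main count, except for tyrosine genes at 10 reads or more in both samples. There 27 of 35 tyrosine, 41 of 57 serine/threonine and 18 of 23 dual-specificity genes passed. The tyrosine share was then above the serine/threonine share, the reverse of their order at an RPKM of 1. The share of named genes at 10 reads was not computed. That limit does not divide by model length. The tyrosine class had the longest median model, 3175 bp, against 1979 bp for serine/threonine and 1101 bp for dual-specificity genes. Whether model length bears on the count of 27 was not tested. Leaving out either sample gave 69 detected genes, 39 to 40 in the serine/threonine class, 15 in the tyrosine class and 14 to 15 in the dual-specificity class. Class medians then ran from 8.68 to 9.84, 0.17 to 0.33 and 2.20 to 2.36 RPKM, the catalytic median from 24.8 to 29.2 RPKM, and the differences from 3.03 to 3.05 (serine/threonine minus tyrosine), 1.34 to 1.45 (dual-specificity minus tyrosine) and 1.60 to 1.69 (serine/threonine minus dual-specificity).

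With genes under a mean of 0.1 RPKM left out, the medians were 12.1 RPKM for serine/threonine, 10.3 for tyrosine and 6.15 for dual-specificity genes, and the differences in the order above 0.22, -0.69 and 0.91. Here fewer genes entered, and the second difference turned round. With RPKM scaled to the reads outside small RNAs and mitochondrial genes, the medians were 15.2, 0.415 and 3.76 RPKM, the catalytic median 44.7 RPKM and the differences 3.53, 1.76 and 1.77. With PTP4A genes moved to the tyrosine class, the tyrosine median was 0.703 and the dual-specificity median 2.01 RPKM, with differences of 2.59, 0.81 and 1.78. With the serine/threonine class limited to catalytic and PPM1 genes, its median was 13.4 RPKM and its differences 3.52 to tyrosine and 2.13 to dual-specificity genes. Among models of at least 500 bp the dual-specificity median was 3.43 RPKM and the differences 3.08, 1.77 and 1.31. A pseudocount of 0.1 gave 4.78, 2.80 and 1.97.

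After the data were seen, 2 alternatives were added. Counting every model of a repeated symbol gave a dual-specificity median of 3.43 RPKM, a catalytic median of 22.4 RPKM and differences of 3.07, 1.81 and 1.27. Adding PPP1R21, listed as KLRAQ1 with 16.1 and 16.9 RPKM, gave a first difference of 3.08. The planned match by Ensembl ID was not run, since the RefSeq table used gave none. Of members 1.5-fold apart between the samples there were 0 with median-ratio scaling, 0 with TMM scaling, 0 at 2-fold and 21 with no filter on low values, against 1. At 2-fold, 1.39% of the 8048 named genes with a mean of at least 1 RPKM lay apart. No paired analysis was possible because the series has 1 group. Depth limits the low genes: 3 members had 0 reads in 1 sample, 0 had none in both, and ratios against genes near 0 rest on few reads.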
